A study of Saccharomyces cerevisiae with 42 samples.

Results

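TSC10, SUR2, LAG1, LAC1, LIP1 and SCS7 encode the enzymes that turn the first product of sphingolipid synthesis into hydroxylated ceramide in budding yeast. They were taken by symbol from a table of transcript levels that holds 6106 genes, and all 6 were found and passed the filter on low values. The libraries came from prototrophic BY4741, a MATa laboratory strain with deletions of his3, leu2, ura3 and met15 that carried the pHLUM plasmid, which restores those functions, so vehicle and treated cells share the deletions and the plasmid. Myriocin (Myr), an inhibitor of serine palmitoyltransferase, was dissolved in 200 ml of SDC medium at 700 ng/ml with 0.3% ethanol, and the vehicle flasks held 0.3% ethanol alone. Cells of a saturated overnight culture were then diluted into this medium to an A600 of 0.15 at 30 °C, so the 0 h cells had met the drug only briefly. RNA-seq was done hourly from 0 to 6 h with 3 libraries for each treatment and hour, 42 libraries in all. According to the protocol, all hours of a replicate were sampled from 1 flask. The columns of the table are identified by treatment, hour and a culture letter. This letter names the libraries here and was fitted as a random block within each treatment only as an alternative. Vehicle columns carry 4 letters and Myr columns 3, with 3 libraries at each hour. The vehicle letters thus differ between hours, such as A, B and D at 0 h and A, B and C at 1 h.

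In yeast, serine palmitoyltransferase makes a ketone that Tsc10 reduces to dihydrosphingosine. Sur2 hydroxylates this long-chain base to phytosphingosine. Ceramide synthase, made of Lag1 or Lac1 with the small subunit Lip1, joins a base to a very long chain fatty acid, and Scs7 hydroxylates the fatty acid part of the ceramide. The steps take place in the endoplasmic reticulum, and ceramide is then carried to the Golgi to receive its head group. Myr acts upstream of every one of these enzymes.

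The 6 genes lie apart from each other and none overlaps another annotated gene, and all have a single exon (R64 build). TSC10 (YBR265W) is on chromosome II at 738582 to 739544, plus strand, and SUR2 (YDR297W) on chromosome IV at 1056551 to 1057600, plus strand. LAG1 (YHL003C) is on chromosome VIII at 100648 to 101883, minus strand, and LAC1 (YKL008C) on chromosome XI at 427295 to 428551, minus strand. LIP1 (YMR298W) and SCS7 (YMR272C) share chromosome XIII, LIP1 at 863819 to 864271 on the plus strand and SCS7 at 809623 to 810777 on the minus strand. The coding sequences span 453 nt in LIP1 to 1257 nt in LAC1, so LIP1, with 150 residues, is by far the smallest protein of the set.

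Lag1 (411 residues) and Lac1 (418 residues) are paralogs, and 288 of 410 aligned residues, 70.2%, were identical in a global alignment of the translated coding sequences. At the aligned codons 68.2% of the bases were identical. The longest stretch that the pair of coding sequences share without a mismatch is 19 nt, at bases 617 to 635 of each counted from the start codon. It is shown because it bounds how far a short read could fit both paralogs, and it reads:

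LAG1 and LAC1 shared stretch: caatgtacagaacatatcc

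The hydroxylases Sur2 (349 residues) and Scs7 (384 residues) had 21.2% identical residues over 326 aligned positions, and their longest shared stretch was 10 nt.

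Promoters were searched on both strands of the 500 bases before each start codon for TCCGNGGA (the pleiotropic drug resistance element), CACGTG (Cbf1), AGGGG (the stress response element), TGACTC (Gcn4) and TCGTATA (a sterol element). Among the 6 promoters 4 matches were found, in 4 different genes, and they are shown because LAC1 and LAG1 differed in their response to Myr. The matched letters are in capitals, on the strand of the gene. A match is a sequence description and not a shown binding site.

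LAC1, drug resistance element, 437 to 430 bases before the start codon, chrXI:428970-428999, minus strand: aagttgctagaTCCGCGGAaccattttcgt

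LAG1, stress response element, 263 to 259 bases before the start codon, chrVIII:102131-102157, minus strand: gagggcagcccAGGGGtagtgaaaaac

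LIP1, stress response element, 119 to 115 bases before the start codon, chrXIII:863689-863715, plus strand: ttttccaccgaAGGGGaggaagaacta

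SUR2, sterol element in reverse orientation, 21 to 15 bases before the start codon, chrIV:1056519-1056547, plus strand: cgaagagggtgTATACGAaaagaaaatat

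Of 6006 promoters of this length, 2.91% hold TCCGNGGA, 34.1% AGGGG, 6.99% TCGTATA, 6.23% CACGTG and 12.7% TGACTC. LAC1 was the only member with the drug resistance element within 500 bases, and no member held CACGTG or TGACTC there. Within the nearest 250 bases only the LIP1 and SUR2 matches were left, where 18.8% and 3.81% of 6007 promoters held the same letters.

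Levels are given as TPM, the share of each transcript per 1000000, which is scaled for transcript length and adds to 1000000 in each library. Over the libraries of 1 to 6 h the mean level was 110.7 TPM for LIP1, 109.4 TPM for SUR2, 98.1 TPM for LAG1, 67.3 TPM for SCS7, 53.8 TPM for LAC1 and 41.1 TPM for TSC10. The median gene tested had 27.0 TPM, so all 6 stood in the upper part of the transcriptome, between the percentiles 63.1 (TSC10) and 84.2 (LIP1). Read counts were not in the table, so the depth behind each value is unknown. Standard errors come from the spread between the 3 libraries of a group, pooled over all groups of a fit.

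Libraries of a group had a Pearson r of 0.976 to 0.995 across genes, which are not independent replicates. The MATa markers summed to 6950 to 20412 TPM in vehicle and 8228 to 19070 TPM with Myr, against 25.8 to 89.5 TPM and 36.1 to 116 TPM for the MATalpha markers, which matches the labelled mating type. In 4 vehicle libraries (A and B at 3 h, B at 4 h and A at 5 h) the ribosomal protein transcript RPL41A alone exceeded 70000 TPM, and results that move without them are given. Tests used limma on log2(TPM + 1) across the 5983 genes that averaged 1 TPM or more, and differences below are on that scale. Across those genes Myr libraries were higher by a median of 0.18 over 1 to 6 h, by 0.01 at 1 h and by 0.31 at 5 h, so member differences are also given after centring each library on its median gene.

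**Figure D1:**
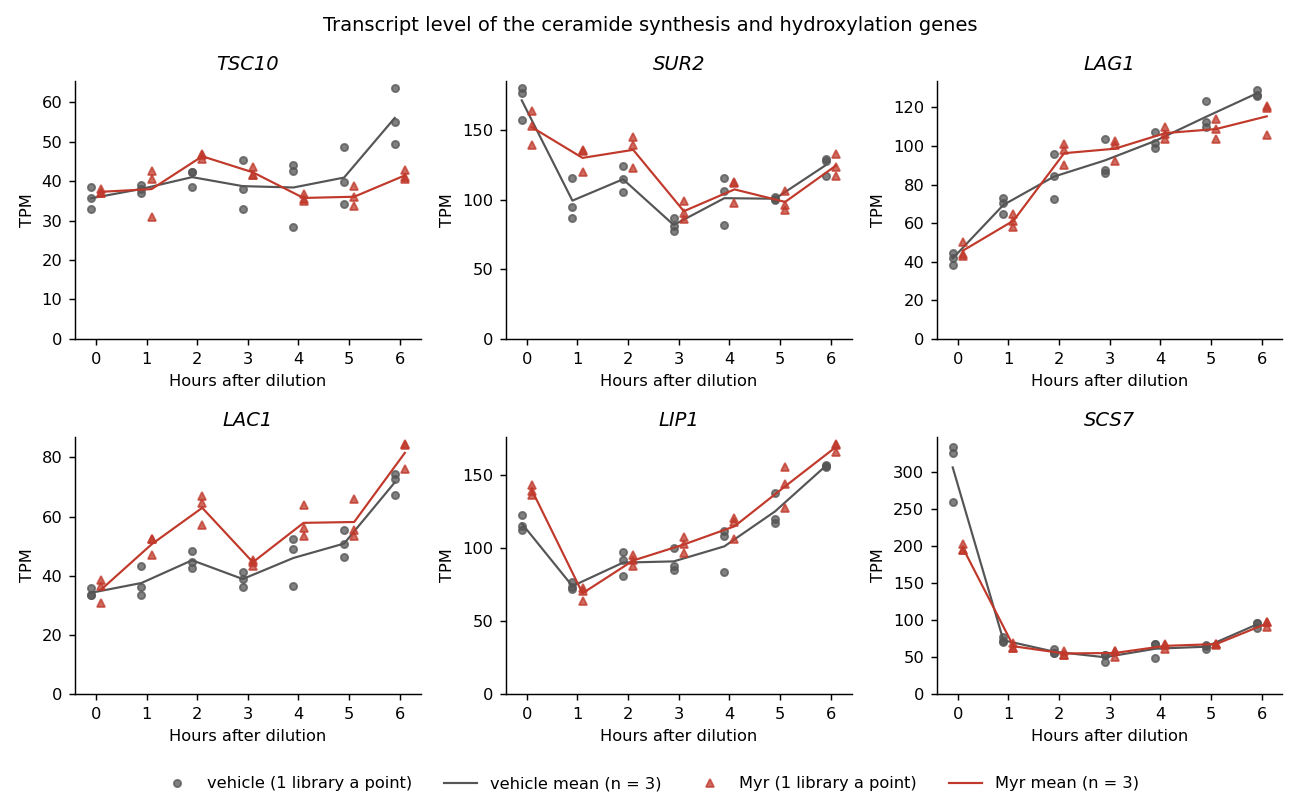
TPM of each gene in every library against hours after dilution (circles, vehicle; triangles, Myr; lines, means of 3 libraries; vertical axes start at 0 and differ between panels). SCS7 fell from 306 to 73.1 TPM in vehicle in the first hour, LAG1 rose from 41.7 to 127 TPM over 6 h, and LAC1 was higher with Myr at 1 h and 2 h.

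All 6 genes changed over 1 to 6 h (limma time term, p of 0.01 or less, with p from 5.4e-16 for LIP1 to 0.0030 for TSC10), as did 86.5% of all genes tested. The samples are whole cultures, in which fewer cells with a transcript and less of it per cell cannot be told apart. The order of the levels changed with time. At 0 h in vehicle SCS7 was the most abundant, at 306 TPM ± 40.5 (SD, n = 3), followed by SUR2 at 172 TPM ± 12.4 and LIP1 at 117 TPM ± 5.4, and the ranges of these libraries did not overlap. LAG1, TSC10 and LAC1 followed at 41.7, 35.6 and 34.3 TPM, where each overlapped the next in the order. At 6 h in vehicle LIP1 led, at 156 TPM ± 0.6, and LAG1 and SUR2, at 127 TPM ± 1.7 and 125 TPM ± 6.5, overlapped each other. SCS7, LAC1 and TSC10 closed the order at 94.3, 71.5 and 56.0 TPM, each apart from the next. With Myr the order at 6 h was LIP1, SUR2, LAG1, SCS7, LAC1 and TSC10, in which only SUR2 and LAG1 overlapped.

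In the first hour after dilution SCS7 and LIP1 fell in TPM in both treatments, SUR2 fell in vehicle, and the ceramide synthase paralog LAG1 rose in both. SCS7, the fatty acid hydroxylase gene, went from 326, 260 and 333 TPM at 0 h to 70.9, 71.5 and 76.9 TPM at 1 h in vehicle, with no overlap, a 4.12-fold fall (log2 -2.04, SE 0.10, limma adjusted p = 1.6e-19). With Myr it went from 203, 195 and 196 TPM to 69.7, 62.7 and 62.8 TPM, a 3.01-fold fall (adjusted p = 1.9e-16). Scaled to the spike-ins, the SCS7 difference was -0.87 in vehicle (adjusted p = 2.1e-04) and -0.050 with Myr, where the call was lost (adjusted p = 0.83). The treatments stood 0.62 apart at 0 h and 0.17 apart at 1 h.

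LIP1, the small subunit of ceramide synthase, fell 1.57-fold in vehicle (adjusted p = 7.9e-08) and 2.01-fold with Myr (adjusted p = 4.9e-12). SUR2, the long-chain base hydroxylase gene, fell 1.73-fold in vehicle (adjusted p = 3.7e-08), from 177, 158 and 180 TPM to 87.4, 95.2 and 116 TPM. With Myr SUR2 went from 140, 153 and 164 TPM to 136, 135 and 120 TPM, and that difference, -0.22, was not called (adjusted p = 0.054). It was called lower without the 4 vehicle libraries rich in RPL41A (adjusted p = 0.030) and with the culture letter as a random block (0.038). A pseudocount of 10 and no filter also called it lower (adjusted p = 0.049 each), while after median centring it was 0.24 and called higher (adjusted p = 0.0035). In vehicle the SUR2 libraries of 0 h and 1 h did not overlap, and with Myr they did not either, but the gap was small beside the spread. For these genes the direction rests on the scaling: relative to the spike-ins, the SUR2 difference was 0.38 in vehicle (adjusted p = 0.091) and 1.32 with Myr and that of LIP1 0.52 and 0.54.

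LAG1 rose 1.65-fold in vehicle (adjusted p = 4.9e-09) and 1.33-fold with Myr (adjusted p = 7.4e-05). LAC1 rose 1.43-fold with Myr (adjusted p = 7.9e-05), from 31.0, 36.4 and 38.5 TPM to 52.5, 52.5 and 47.0 TPM with no overlap. In vehicle the LAC1 difference was 0.12 and was not called (adjusted p = 0.30), but LAC1 was called higher there after median centring (0.51, adjusted p = 5.0e-07) and spike-in scaling (1.29, adjusted p = 5.4e-07). TSC10, the reductase gene, was not called in either treatment, with differences of 0.09 and 0.01, but was higher at 1 h after median centring, by 0.48 in vehicle and 0.48 with Myr, and under spike-in scaling, by 1.26 and 1.55.

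In vehicle 1 member was thus called higher and 3 lower at 1 h, where 29.3% of all genes were called higher and 52.6% lower. With Myr 2 were called higher and 2 lower, against 27.2% and 55.6% of all genes. A direct test of the difference between treatments in this first-hour change was passed by SUR2 (0.56, SE 0.15, adjusted p = 0.020) and SCS7 (0.45, adjusted p = 0.046), beside 6.23% of all genes. LAC1 missed it (0.39, adjusted p = 0.14) but passed after median centring (0.47, adjusted p = 0.0035) and without the 4 vehicle libraries rich in RPL41A (0.39, adjusted p = 0.049). LIP1 missed it (-0.35, adjusted p = 0.11) but passed without the same 4 vehicle libraries (-0.35, adjusted p = 0.024). LAG1 missed it too (-0.31, adjusted p = 0.15). The SCS7 difference includes its gap at 0 h, described below, and its call was lost in 32 of the 42 fits that left out a single library, while that of SUR2 was lost in 3.

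**Figure D2:**
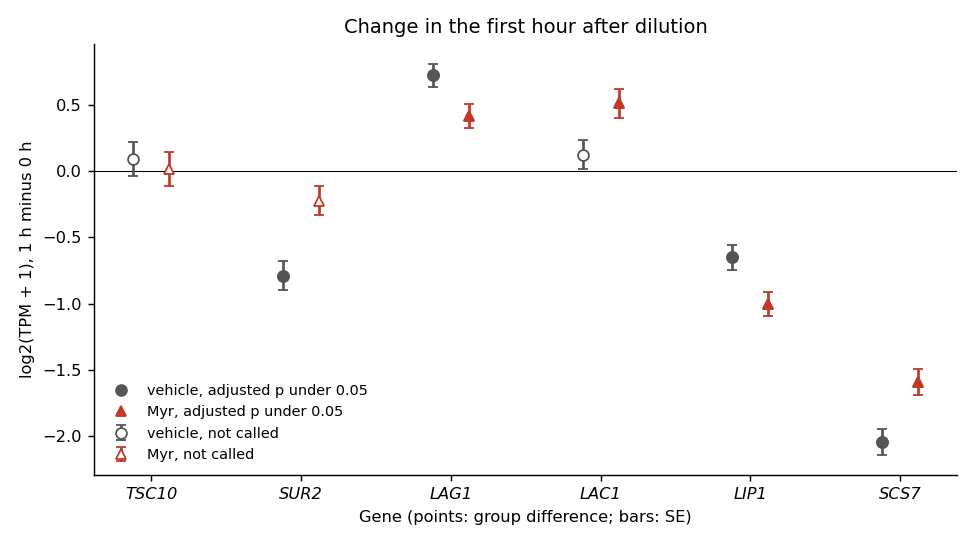
Change from 0 h to 1 h after dilution for each gene, as a difference in log2(TPM + 1) with its standard error (circles, vehicle; triangles, Myr; filled where the adjusted p is under 0.05; 3 libraries a group). On this scale SCS7 fell most, LIP1 fell in both treatments (under spike-in scaling it was higher at 1 h in both), and LAG1 rose in both. SUR2 changed by -0.79 in vehicle and -0.22 with Myr, and LAC1 by 0.12 and 0.51.

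From 1 h to 6 h all 6 members rose in vehicle, where 43.3% of all genes did. LIP1 rose most, 2.09-fold (adjusted p = 2.7e-12), followed by LAC1, 1.89-fold, and LAG1, 1.82-fold, so the ceramide synthase genes led the increase. TSC10 rose 1.45-fold, SCS7 1.29-fold and SUR2 1.26-fold. After spike-in scaling the calls of TSC10, SUR2 and SCS7 were lost, with differences of 0.23, 0.02 and 0.05, and after median centring that of SUR2 (0.14, adjusted p = 0.080).

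With Myr 4 members rose over the same hours, against 50.6% of all genes: LIP1 2.43-fold, LAG1 1.87-fold, LAC1 1.60-fold and SCS7 1.46-fold. SUR2 (-0.06, adjusted p = 0.60) and TSC10 (0.14, adjusted p = 0.35) were not called, and after median centring the differences were -0.39 and -0.19 and both were called lower at 6 h. After spike-in scaling the calls of LAC1 (0.35, adjusted p = 0.17) and SCS7 (0.22, adjusted p = 0.38) were lost. No member passed the test of a difference between treatments in this change (smallest adjusted p 0.095, for SUR2).

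The rise was not even. From 2 h to 3 h SUR2 fell in both treatments, 1.39-fold in vehicle (adjusted p = 0.0020; 6.03% of all genes were called lower) and 1.47-fold with Myr (adjusted p = 2.3e-04; 6.02%). LAC1 fell 1.40-fold with Myr in the same hour (adjusted p = 0.0015), and its difference in vehicle was -0.21 (adjusted p = 0.26). The difference between treatments in this LAC1 change was not called (-0.27, adjusted p = 0.95). The LAC1 libraries with Myr dropped from 67.0, 57.1 and 64.7 TPM at 2 h to 43.5, 44.8 and 45.4 TPM at 3 h, with no overlap. From 5 h to 6 h 5 members rose in vehicle, all but LAG1, against 23.3% of all genes, with SCS7 (1.46-fold) and LAC1 (1.40-fold) in front. With Myr LAC1 (1.40-fold) and SCS7 (1.40-fold) rose in that hour, against 2.94% of all genes. SUR2 had a difference of 0.34 with Myr that was not called (adjusted p = 0.070), beside 0.31 in vehicle. No member passed the test of a difference between treatments in this change (smallest adjusted p 0.45, for TSC10).

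In TPM as deposited, LAC1 was the member with the largest difference between Myr and vehicle over 1 to 6 h, while after median centring TSC10 had the largest, in the other direction (-0.23). On the deposited scale the average LAC1 difference was 0.30 (SE 0.05, 95% interval 0.21 to 0.39, adjusted p = 2.2e-06 by limma), which is 1.23-fold. The mean was higher with Myr in 6 of 6 hours on that scale. The 3 Myr libraries lay above the 3 vehicle libraries at 1, 2, 3, 4 and 6 h and overlapped them at 0 h and 5 h. The share of all genes whose libraries were separate was not counted at any hour, so this separation is a description only. LAC1 stayed higher after median centring, by 0.13 (adjusted p = 0.0015), and without the 4 vehicle libraries rich in RPL41A, by 0.25 (adjusted p = 1.9e-05). With the culture letter as a random block the LAC1 difference was 0.30 (adjusted p = 2.5e-04). After centring, the LAC1 differences at 3 h and 5 h were -0.05 and -0.14, and neither was called.

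SUR2 was higher with Myr by 0.14 on average (SE 0.04, adjusted p = 0.0047), which is 1.10-fold. This call, at an unadjusted p of 0.01 or less, was lost without the 4 vehicle libraries (0.10, adjusted p = 0.034) and with the culture letter as a random block (0.14, adjusted p = 0.040), and after median centring the difference was -0.03 (adjusted p = 0.42). LIP1 had a difference of 0.10 (interval 0.02 to 0.18, adjusted p = 0.023), which missed the unadjusted threshold. SCS7 (0.02, interval -0.06 to 0.10), LAG1 (-0.01, interval -0.08 to 0.06) and TSC10 (-0.06, interval -0.17 to 0.05) were not called, and on this scale their intervals exclude an average difference of the size seen in LAC1. Without the 4 vehicle libraries TSC10 was lower with Myr (-0.15, adjusted p = 0.0033).

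Thus 2 of 6 members were called higher and none lower, where 64.5% of all genes were higher and 5.65% lower. The median over the members was 0.06, against 0.18 over all genes. After median centring LAC1 was higher and TSC10 (-0.23), LAG1 (-0.18) and SCS7 (-0.15) were lower, against 24.2% and 20.0% of all genes, whereas under spike-in scaling all 6 were higher, as were 96.4% of all genes, whose median was 0.76. For TSC10, LAG1 and SCS7 the direction thus rests on the scaling. The same holds for SUR2 (-0.030) and LIP1 (-0.075), which were below 0 after centring, not called, and above 0 on the deposited and spike-in scales. The drug by time interaction was called for 0 of 6 members at p of 0.01 or less (limma; LAG1 and TSC10, 2 of 6, had an unadjusted p under 0.05, with adjusted p = 0.097 and 0.13) and for 22.6% of all genes. After median centring 3 members passed it, and 34.6% of all genes did.

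**Figure D3:**
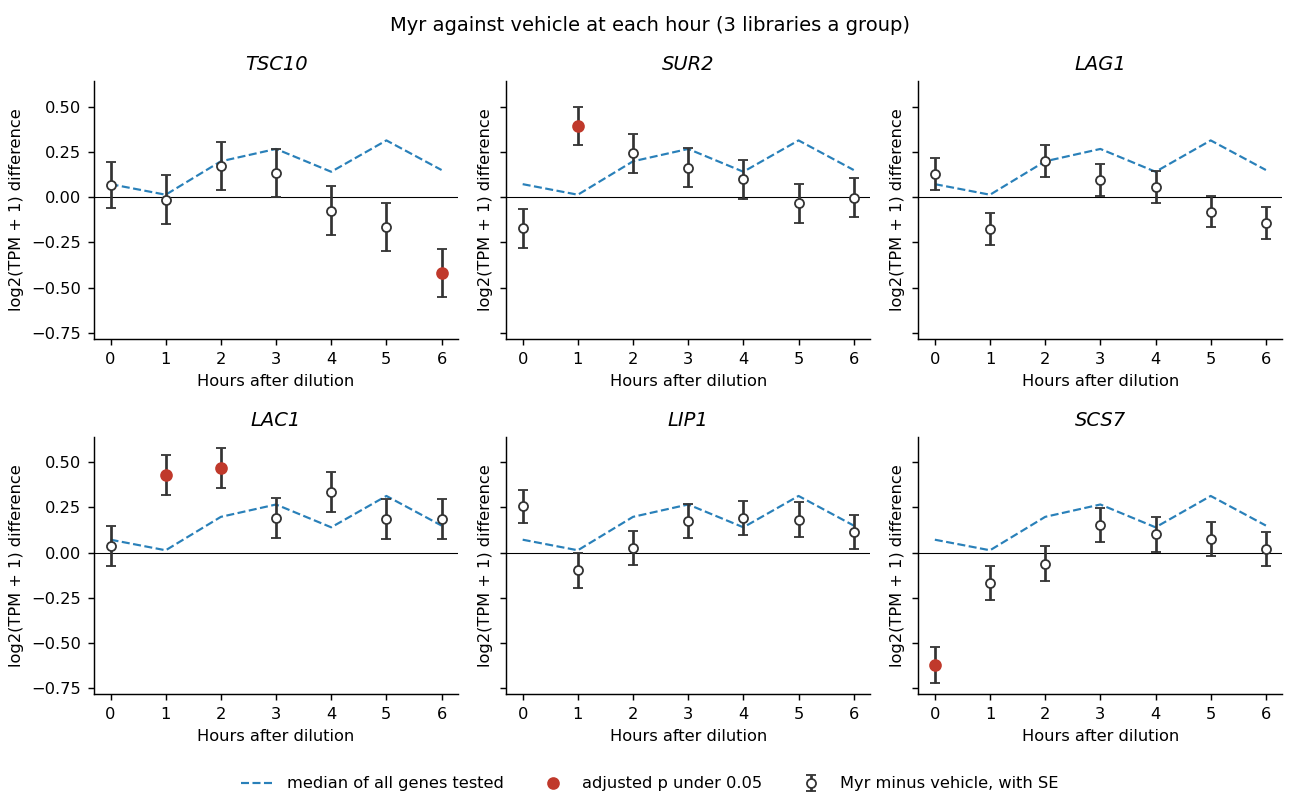
Myr minus vehicle at each hour in log2(TPM + 1), with standard errors, for each gene (3 libraries a group; filled points, adjusted p under 0.05). The dashed line is the median over all genes tested, which reached 0.31 at 5 h. LAC1 and SUR2 stood above it at 1 h, every gene shown stood below it at 5 h, and all but LAC1 did at 6 h.

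At 1 h LAC1 and SUR2 were higher with Myr, 2 of 6 members, where 2.42% of all genes were higher and 3.01% lower. LAC1 had 36.1, 33.4 and 43.2 TPM in the vehicle libraries and 52.5, 52.5 and 47.0 TPM in the Myr libraries, with no overlap, a 1.34-fold difference (0.43, SE 0.11, adjusted p = 0.016). SUR2 had 87.4, 95.2 and 116 TPM in vehicle and 136, 135 and 120 TPM with Myr, again with no overlap, a 1.31-fold difference (0.39, SE 0.11, adjusted p = 0.023). At this hour the median gene differed by only 0.01, so both differences were nearly the same after centring (0.43 and 0.40). Both calls were lost when vehicle library A or B or Myr library A or B of 1 h was left out, with an adjusted p of up to 0.13 for LAC1 and 0.20 for SUR2, and when the hour was fitted on its own (adjusted p = 0.057 and 0.069).

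The other members were not called at 1 h. LAG1, the paralog of LAC1, had 70.4, 64.8 and 73.0 TPM in vehicle and 60.9, 64.9 and 58.1 TPM with Myr, which overlap, and a difference of -0.18 (adjusted p = 0.33). SCS7 had 70.9, 71.5 and 76.9 TPM in vehicle and 69.7, 62.7 and 62.8 TPM with Myr, which do not overlap, and a difference of -0.17 (adjusted p = 0.45). LIP1 differed by -0.10 and TSC10 by -0.01.

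At 2 h LAC1 was the only member called. It had 44.7, 48.3 and 42.7 TPM in vehicle and 67.0, 57.1 and 64.7 TPM with Myr, with no overlap, a 1.38-fold difference (0.47, SE 0.11, adjusted p = 0.011). At this hour 16.0% of all genes were higher and 2.49% lower. After centring the LAC1 difference was 0.27 (adjusted p = 0.017), and without Myr library C of 2 h it was 0.45 (adjusted p = 0.056). SUR2 had a difference of 0.24 (adjusted p = 0.093) and LAG1 one of 0.20 (adjusted p = 0.087), and without the 4 vehicle libraries both were called. TSC10 had 38.5, 42.3 and 42.3 TPM in vehicle and 46.8, 46.5 and 45.5 TPM with Myr, which do not overlap, and a difference of 0.17 that was not called (adjusted p = 0.32).

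At 3, 4 and 5 h no member was called by limma, and at an unadjusted p under 0.05 only LAC1 at 4 h passed. The share of all genes called higher was 39.4% at 3 h, 6.12% at 4 h and 52.2% at 5 h, and the share called lower 2.62%, 0.953% and 3.99%. LAC1 at 4 h had 36.5, 52.5 and 49.1 TPM in vehicle and 63.8, 53.5 and 56.2 TPM with Myr, which do not overlap, and a difference of 0.34 (adjusted p = 0.061). The low vehicle value is that of library B, 1 of the 4 rich in RPL41A. In it all other members were also the lowest of their group: TSC10 (28.4 TPM), SUR2 (81.7 TPM), LAG1 (99.2 TPM), LIP1 (84.0 TPM) and SCS7 (49.2 TPM).

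At 5 h the median gene was 0.31 higher with Myr, and the members' differences ran from -0.17 (TSC10) to 0.19 (LAC1). After centring 4 of them were called lower, where 22.5% of all genes were: TSC10 (-0.49), LAG1 (-0.41), SUR2 (-0.36) and SCS7 (-0.25), and LAC1 (-0.14, adjusted p = 0.15) and LIP1 (-0.14, adjusted p = 0.086) were not. Under spike-in scaling 5 of 6 were called higher at this hour, against 88.2% of all genes.

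At 6 h TSC10 was lower with Myr and no other member was called, where 19.6% of all genes were higher and 3.43% lower. TSC10 had 49.3, 55.1 and 63.6 TPM in vehicle and 40.5, 41.0 and 42.8 TPM with Myr, with no overlap, a 1.34-fold lower level (-0.42, SE 0.13, adjusted p = 0.022). After centring the difference was -0.55, under spike-in scaling it was -0.06 (adjusted p = 0.79), and the call was lost without vehicle library C (-0.32, adjusted p = 0.12), Myr library A or Myr library B of 6 h. TSC10 rose 1.37-fold from 5 h to 6 h in vehicle (adjusted p = 0.0097) and had a difference of 0.20 with Myr (adjusted p = 0.68). The difference between treatments in that change was not called (-0.25, adjusted p = 0.45).

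LAG1 at 6 h had 129, 127 and 126 TPM in vehicle and 121, 106 and 120 TPM with Myr, which do not overlap, and a difference of -0.14 (adjusted p = 0.25). LIP1 had 156, 157 and 156 TPM in vehicle and 171, 166 and 171 TPM with Myr, also with no overlap, and a difference of 0.11 (adjusted p = 0.41). LAC1 had 74.3, 72.8 and 67.4 TPM against 84.0, 76.1 and 84.3 TPM, with no overlap, and a difference of 0.19 (adjusted p = 0.23). None of these passed the test. The share of all genes whose libraries were separate at this hour was not counted, so the separation is a description only.

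At 0 h, when the cells had just been diluted, SCS7 already differed. It had 326, 260 and 333 TPM in vehicle and 203, 195 and 196 TPM with Myr, with no overlap, a 1.54-fold lower level (-0.62, SE 0.10, adjusted p = 8.1e-05). At this hour 8.26% of all genes were higher and 3.63% lower in the Myr flasks, and SCS7 was the only member called. The call was lost when the hour was fitted on its own (adjusted p = 0.13). Under spike-in scaling it was not called either (-0.62, adjusted p = 0.21). That scaling sets each treatment to its own 0 h level, so it cannot test a difference between treatments at 0 h. LIP1 had 115, 123 and 113 TPM in vehicle and 143, 139 and 136 TPM with Myr, which do not overlap, and a difference of 0.26 (adjusted p = 0.063), and without the 4 vehicle libraries of later hours it was called. The vehicle libraries of 0 h held spike-in mix 1 and those with Myr mix 2, with 0.761 to 1.06% and 1.00 to 1.45% of TPM in spike-ins, and the part of the mix in these differences was not tested.

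**Figure D4:**
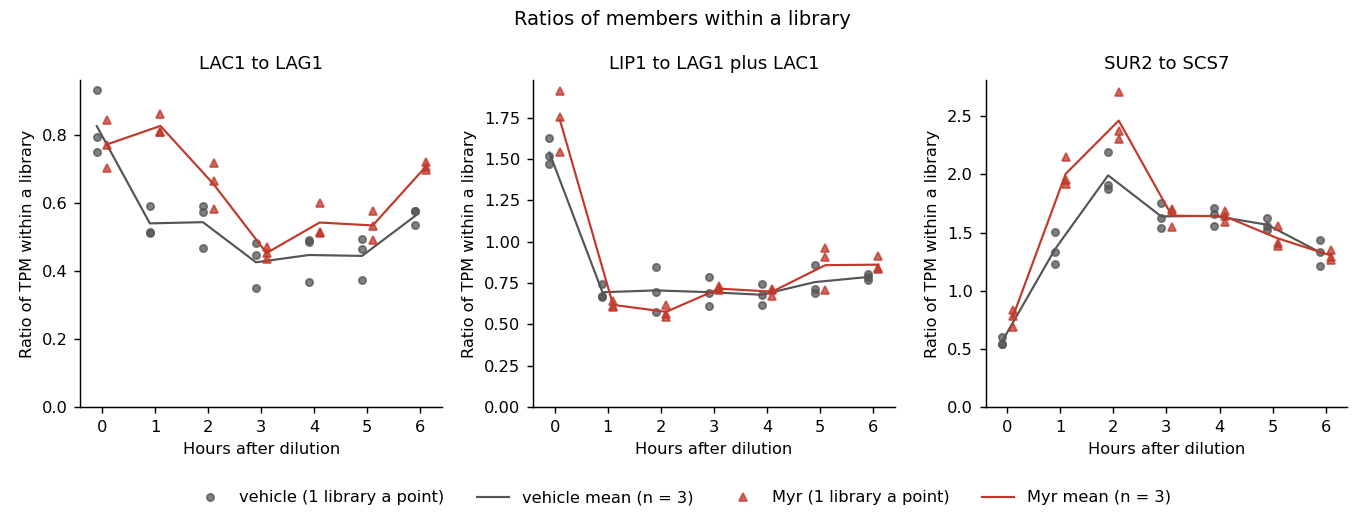
Ratio of TPM between members within each library against hours after dilution (circles, vehicle; triangles, Myr; lines, means of 3 libraries; axes start at 0). The ratio of LAC1 to LAG1 was higher with Myr in 6 of 6 hours from 1 h on, that of LIP1 to the sum of LAG1 and LAC1 fell from 1.54 to 0.69 in vehicle in the first hour, and that of SUR2 to SCS7 was higher with Myr at 0, 1 and 2 h.

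Ratios between members of the same library do not change with the scaling of the library. The ratio of LAC1 to LAG1, the paralogs that can each fill the catalytic place in ceramide synthase, was 1.24-fold higher with Myr over 1 to 6 h (log2 0.31, permutation test of treatments within hours, p = 2e-05, adjusted over 3 ratios 6e-05), and was higher in 6 of 6 hours. At 0 h it was 0.83 ± 0.10 in vehicle and 0.77 ± 0.07 with Myr (SD, n = 3), which overlap. At 1 h it was 0.54 ± 0.04 in vehicle and 0.83 ± 0.03 with Myr, with no overlap (exact permutation p = 0.1, the smallest that 3 against 3 allows). Between 0 h and 1 h both paralogs were called higher with Myr, and in vehicle LAG1 was called higher under each scaling and LAC1 after median centring and spike-in scaling only.

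At 3 h the ratio was 0.43 ± 0.07 in vehicle and 0.45 ± 0.02 with Myr, which overlap, and at 6 h it was 0.56 ± 0.02 and 0.71 ± 0.01, with no overlap. LAG1 was the more abundant paralog in every library. The average log2 difference was 0.29 to 0.33 when each library was left out in turn and 0.24 without the 4 vehicle libraries (adjusted p = 2.7e-04). By the protocol all hours of a replicate came from 1 flask, so a p over hours may be too small.

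The ratio of LIP1 to the sum of LAG1 and LAC1 differed by -0.01 (log2) over 1 to 6 h, and the permutation test found no difference (p = 0.89), but this average covers lower ratios with Myr at 1 h and higher ones at 6 h. At 1 h it was 0.69 ± 0.05 in vehicle and 0.62 ± 0.02 with Myr, and at 6 h 0.79 ± 0.02 and 0.86 ± 0.04, in both cases with no overlap (exact permutation p = 0.1 each). At 0 h it was 1.54 ± 0.08 and 1.73 ± 0.19, so the LIP1 level exceeded the summed level of LAG1 and LAC1 at dilution and was below it in every group from 1 h on.

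The ratio of the hydroxylase genes SUR2 and SCS7 was 1.09-fold higher with Myr over 1 to 6 h (log2 0.12, permutation p = 0.027, adjusted 0.041), with the difference in the first hours. It was 1.36 ± 0.14 in vehicle and 2.00 ± 0.13 with Myr at 1 h, and 1.99 ± 0.18 and 2.46 ± 0.21 at 2 h, both with no overlap. From 3 h to 6 h the groups overlapped at each hour, with log2 differences of -0.11 to 0.01. The ratio already differed at 0 h, 0.56 ± 0.04 against 0.77 ± 0.08, with no overlap, and the adjusted p rose above 0.05 in 15 of the 36 fits that left out a library.

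Across the 42 libraries the members did not follow a single course. The Pearson r was 0.71 between LAG1 and LAC1 and 0.76 between SUR2 and SCS7, and it was -0.68 between LAG1 and SCS7 and -0.55 between LAG1 and SUR2. The libraries share hours and flasks, so these correlations are descriptions. Among 5146 genes that averaged 10 TPM or more, those most like LAG1 were OST1 (r = 0.98), a subunit of oligosaccharyltransferase, CTS2 (0.96) and RHO2 (0.95), a small GTPase. LAC1 was most like MCD4 (0.89) and GWT1 (0.88), which act in the synthesis of glycosylphosphatidylinositol anchors, and MPD1 (0.88), a protein of the disulfide isomerase family.

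LIP1 was most like RAS2 (0.96), SBP1 (0.95) and TPS3 (0.95), and SCS7 most like DPC29 (0.97), MRPL39 (0.97), a mitochondrial ribosomal protein, and BOL1 (0.96). SUR2 was most like the glucanase gene EXG1 (0.89), YKL063C (0.87) and ASF2 (0.85). TSC10 had no close match, with ADH4 first at 0.79, then TEL2 (0.69) and SWI6 (0.68).

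Genes of the neighbouring steps were taken from lists chosen with earlier results of these data known and were counted at the same threshold. Of 5 genes of serine palmitoyltransferase and its regulators 4 were higher and 1 lower. ORM2, a negative regulator of the enzyme, was higher by 0.73 (adjusted p = 2.1e-14), LCB1 by 0.39 and LCB2 by 0.23, the catalytic subunits, and TSC3, a small activating subunit, had a difference of -0.49 (adjusted p = 6.6e-06). Of 7 head group genes 6 were higher, with SUR1 at 0.64, IPT1 at 0.55, CSG2 at 0.33 and ISC1, which hydrolyses complex sphingolipids, at 0.24. Of 9 genes of long-chain base turnover and ceramide breakdown 8 were higher, among them HFD1 (0.50), the ceramidase gene YDC1 (0.38), the base kinase gene LCB4 (0.25) and the ceramidase gene YPC1 (0.23).

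Fatty acid elongation, which supplies the acyl chain to ceramide synthase, had 7 of 8 genes higher, led by TSC13 (0.28), FAA1 (0.28), ACC1 (0.23) and PHS1 (0.14). A list of kinase and kinase subunit genes linked to ceramide synthase, not all of which act on it directly, had 7 of 8 higher. YPK1 (0.55), PKH1 (0.33), PKH2 (0.28) and CKA2 (0.19) led it. Ceramide transport had 3 of 5 higher (NVJ2 at 0.19, TCB3 at 0.18 and TCB1 at 0.16). Of the electron supply of the hydroxylases only CYB5 was higher (0.22), 1 of 3. These counts stand beside 64.5% of all genes higher. After median centring the counts higher and lower were 3 and 1 of 5 for serine palmitoyltransferase, 3 and 1 of 7 for head groups, 2 and 1 of 9 for turnover, 1 and 1 of 8 for elongation, 3 and 1 of 8 for kinases, 0 and 1 of 5 for transport and 0 and 1 of 3 for electron supply.

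The list of drug resistance regulators and targets had 6 of 8 genes higher with Myr, and 6 after centring too, with 1 lower. PDR5, a drug efflux pump, was higher by 1.93 (adjusted p = 1.2e-20) over 1 to 6 h and by 0.77 at 1 h (adjusted p = 0.0013). YOR1 was higher by 0.43, PDR16 by 0.37 and PDR3, a regulator of the group, by 0.37, and none of these 3 was called at 1 h. SNQ2, another efflux pump, differed by -0.03 over all hours and by -1.80 at 1 h (adjusted p = 1.2e-11). Of the transcription factors CBF1 and ROX1, CBF1 was not called (0.06, adjusted p = 0.33) and ROX1 was higher (0.32, adjusted p = 6.4e-06).

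**Figure D5:**
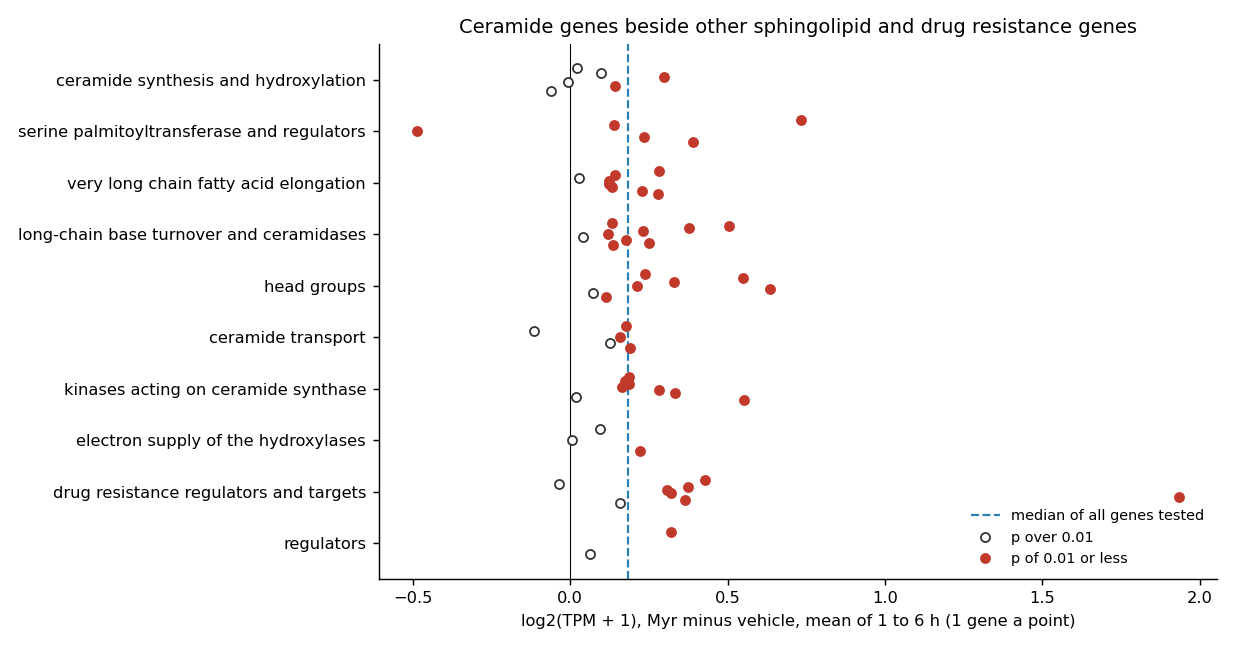
Myr minus vehicle, averaged over 1 to 6 h, in log2(TPM + 1), for the 6 ceramide genes (top row) and for lists of neighbouring genes (1 gene a point; filled, p of 0.01 or less; dashed line, median of all genes tested, 0.18). LAC1, at 0.30, is the only ceramide gene to the right of the dashed line, and PDR5, at 1.93, lies furthest to the right.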

How the data were processed

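The authors grew the cells as described above, made TruSeq Stranded mRNA libraries with spike-in mix 1 (vehicle) or mix 2 (Myr), called bases with bcl2fastq 2.17.1.14, trimmed with Trimmomatic 0.36 and assigned reads with Salmon 0.8.2 to the R64 transcriptome and the spike-ins. They deposited TPM per library, without pooling replicates. TPM holds no depth, so no count test was used. Columns were put in groups by treatment and hour. Of 6106 gene identifiers 6103 matched the R64 annotation.

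Values were analysed as log2(TPM + 1) with limma 3.58.1 in R 4.3.3 (group means, empirical Bayes with a variance trend), with spike-ins left out and a minimum mean of 1 TPM. Drug, time and interaction terms over the 36 libraries of 1 to 6 h were called at p of 0.01 or less. Single hours and changes between hours were called where p, adjusted over 5983 genes by Benjamini-Hochberg, was under 0.05, and 0 h and changes between hours used a fit of all 42 libraries. The scripts were tested on simulated data. Ratios were tested with 100000 two-sided permutations of treatments within hours. Sequences were read from the R64 genome with Biopython and Python 3.11.15. Genes named are the 6 members, up to 4 called genes of each list with the largest drug difference (SNQ2 and CBF1 were added after their values were seen), and the 3 genes most like each member.

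The members, lists and tests were chosen with earlier results of these data known. The columns carry culture letters but do not state which libraries share a flask, so the main fits took libraries as independent. By the protocol all hours of a replicate came from 1 flask, although the vehicle letters differ between hours, so p-values over several hours may be too small. They measure the spread between libraries within groups, pooled over the groups of a fit. Alternatives were other pseudocounts (0.1 and 10), other filters (none, and 10 TPM), median centring, spike-in scaling to the 0 h level of each treatment, no variance trend, each hour fitted alone, the culture letter as a random block, removal of a length trend (loess, span 0.5), leaving out the 4 vehicle libraries with RPL41A above 70000 TPM or each library in turn, and an adjusted p under 0.05 for the 3 terms.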

Additional observations from a re-analysis of the deposited data

Results flagged for a closer look

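The change from 0 h to 1 h differed between treatments by a direct test in 2 members. The SUR2 change was 0.56 higher with Myr than in vehicle on the log2(TPM + 1) scale (limma adjusted p = 0.020). With each library left out in turn this difference was 0.48 to 0.68. SUR2 itself changed by -0.79 in vehicle and by -0.22 with Myr, a smaller fall that was not called in the main fit. For SCS7 the change was 0.45 higher with Myr (adjusted p = 0.046, and 0.39 to 0.57 with each library left out). SCS7 fell by 2.04 in vehicle and by 1.59 with Myr, where it went from a lower level at 0 h to a like level at 1 h. Under spike-in scaling the differences were 0.93 and 0.82 and neither was called (adjusted p = 0.096 and 0.15).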

How the results depend on the processing

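LAC1 stayed higher with Myr over 1 to 6 h under each of 11 alternatives (0.13 to 0.88) and with each library left out (0.27 to 0.32), and so did the ratio of LAC1 to LAG1 (0.24 and 0.31 under 2 alternatives, 0.29 to 0.33 with a library left out). Other member results moved with the scaling, and the cause was not tested. Median centring gave drug averages of -0.23 for TSC10, -0.030 for SUR2, -0.18 for LAG1, -0.075 for LIP1 and -0.15 for SCS7, with 4 members called in the drug term, 3 in the interaction, 2 at 0 h, 2 at 2 h and 4 at 5 h. Of all genes 24.2% were then higher and 20.0% lower in the drug term, 34.6% passed the interaction and 22.5% were lower at 5 h. Where no share of all genes stands beside a count of members under an alternative, that share was not counted, so the count is a description only. After centring SCS7 was lower at 5 h (-0.25), SUR2 higher at 1 h than at 0 h with Myr (0.24) and TSC10 lower at 6 h than at 1 h with Myr (-0.19).

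Spike-in scaling gave drug averages of 0.52 for TSC10, 0.57 for LAG1, 0.67 for LIP1 and 0.60 for SCS7, with 6 members called in the drug term and 1 in the interaction. Of all genes 96.4% were then higher in the drug term and 88.2% at 5 h. The median gene was higher by 0.98 at 2 h, 1.03 at 3 h, 0.85 at 4 h and 0.51 at 6 h. This scaling called 6 members at 2, 3 and 4 h, 5 at 5 h and 2 at 6 h, and turned SCS7 at 2 h (0.72), TSC10 at 4 h (0.63), SUR2 at 5 h (0.44) and LAG1 at 5 h (0.40) higher. At 0 h it called 0 (limma; SCS7 at adjusted p = 0.21), but it cannot test that hour, to which each treatment is scaled. From 0 to 1 h it gave 0.38 (SUR2) and 0.52 (LIP1) in vehicle and 1.32 and 0.54 with Myr. From 1 to 6 h it called 3 members in vehicle and 2 with Myr, and for 0 members did the first-hour change differ between treatments.

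Without the 4 vehicle libraries rich in RPL41A the drug averages were -0.15 for TSC10, 0.10 for SUR2 (no longer called), 0.012 for LAG1 and -0.016 for SCS7. The numbers called were then 1 in the interaction, 2 at 0 h, 3 at 2 h, 1 at 5 h and 4 for the difference in first-hour change. With the letter as a random block (correlation 0.18) SUR2, at 0.14, was not called, leaving 1 member in the drug term, and 1 was called at 4 h. Each hour fitted on its own, with fewer samples, called 0 at 0 h, 0 at 1 h and 2 at 2 h, and could not give averages or changes over time. Removal of the length trend gave 0.17 for LIP1 and -0.00044 for SCS7 and called 1 at 3 h. A pseudocount of 10 called 2 at 0 h, and at an adjusted p under 0.05 LIP1, at 0.10, was called in the drug term. A pseudocount of 0.1, both other filters and no variance trend changed no count of called members by more than 1.5 times and reversed no called value.

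With each library left out in turn the drug average of LAG1 was -0.025 to 0.0080, of LIP1 0.077 to 0.11 and of SCS7 -0.0048 to 0.034, the ratio of LIP1 to LAG1 plus LAC1 was -0.030 to 0.016 and that of SUR2 to SCS7 0.11 to 0.14. The number of members called was 0 to 1 in the interaction, 1 to 2 at 0 h, 0 to 2 at 1 h and 2 h, 0 to 1 at 3, 4, 5 and 6 h and 0 to 3 for the difference in first-hour change. No paired analysis was possible by replicate number because the columns carry letters that could not be joined to the replicate numbers of the labels, so the letter within each treatment stood in for the flask in the block above. Depth is unknown for TPM, so the counting error could not be given.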
